A study of Homo sapiens with 20 samples.

Results

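The EMT transcription factors ZEB1, ZEB2, SNAI1, SNAI2, TWIST1 and TWIST2, the cadherins CDH1, CDH2 and CDH11 and the intermediate filament gene VIM were followed through 12 RNA-seq and 8 Cut&Run samples of the human melanoma cell lines A375 and 1205Lu. These 10 genes were taken by their symbols from a read-count table of 58870 genes, and each symbol matched 1 row. Of the 54563 consensus Cut&Run peaks, 61 lay within 50 kb of 1 of these genes, and none of them was within 50 kb of a second one. Distances ran from the whole annotated gene, and 20 of the 61 were centred at least 100 kb from the start of its canonical transcript. For RNA-seq, each line was treated with non-targeting siRNAs (si-NT) or with siRNAs against FOSL1, the gene that encodes the AP-1 factor FRA1 (si-FRA1), with 3 samples in each of the groups A375 si-NT, A375 si-FRA1, 1205Lu si-NT and 1205Lu si-FRA1. For Cut&Run, in which an antibody directs a nuclease to the DNA where its target sits, each line without siRNA gave 3 libraries with an antibody against FRA1 and 1 library with IgG as the background. A375 is an established melanoma line with mutated BRAF, and 1205Lu is a lung-metastatic derivative of another melanoma line with mutated BRAF. The labels give no separate cultures for the replicates, so p-values measure the spread between these samples, which may be technical. In these bulk samples, fewer cells of a kind and less RNA per cell cannot be told apart. All si-FRA1 samples carry 1 label, so lower FRA1 and any other effect of these siRNAs cannot be told apart.

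In epithelial-mesenchymal transition (EMT), the zinc finger factors of the ZEB and SNAI families and the basic helix-loop-helix factors of the TWIST family repress epithelial genes through E-box sequences, with CDH1 (E-cadherin) as their classical target. Cells that pass through it often exchange CDH1 for CDH2 (N-cadherin) or CDH11 and hold much vimentin, the filament protein made from VIM. Melanocytes are not epithelial by lineage, and in melanoma ZEB2 and SNAI2 are known from differentiated cells while ZEB1 and TWIST1 mark a dedifferentiated, invasive state. AP-1 factors such as FRA1, bound as dimers with JUN proteins, are known to act on several of these genes in carcinoma.

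The counts on genes ranged from 20573412 to 32518903 per RNA-seq sample. Values are CPM, counts relative to library sizes scaled by edgeR's TMM method. FOSL1, the silenced gene, had 413, 424 and 408 CPM in A375 si-NT and 25.7, 25.7 and 26.0 CPM in A375 si-FRA1 samples. In 1205Lu cells it had 492, 484 and 478 CPM in controls and 69.4, 70.9 and 65.1 CPM in silenced samples. FOSL1 mRNA left after silencing was 6.22% of the si-NT mean in A375 cells and 14.1% in 1205Lu cells, and every si-FRA1 sample was below every si-NT sample of its line. Of the 8 melanocyte markers, MITF and SOX10, the lineage's central factors, were present in both lines, with MITF between 49.9 and 54.6 CPM in A375 si-NT and between 3.29 and 3.74 CPM in 1205Lu si-NT, and SOX10 between 43.5 and 44.3 CPM and between 902 and 931 CPM. The pigment genes MLANA and TYR had at most 13 counts in any sample. S100B had a mean of 0.992 CPM in A375 si-NT and 427 CPM in 1205Lu si-NT. In the same groups TYRP1 was at 0.915 and 0.148 CPM and DCT at 0.334 and 0.523 CPM. With silencing, 3 of 5 tested melanocyte markers passed the test in A375 cells, 2 higher and 1 lower, and 2 of 5 were lower in 1205Lu cells. Over all tested protein-coding genes 57.7% passed in A375 and 47.0% in 1205Lu cells, so nothing particular to the markers is read from these counts. PMEL was near the floor in A375 cells, with a mean of 0.489 CPM with si-NT and 1.13 CPM with si-FRA1 (log2 fold change 1.19, edgeR adjusted p = 0.014). The summed level of the 8 markers lay between 97.0 and 105 CPM in all A375 samples, and in 1205Lu cells between 1331 and 1365 CPM in controls and between 1189 and 1215 CPM in silenced samples.

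With the control siRNA, the lines differed in 9 of the 10 genes. Genes of all kinds differed between them, since 81.8% of 14844 tested protein-coding genes passed edgeR's quasi-likelihood test at an adjusted p under 0.05. SNAI2, which encodes SLUG, showed the largest difference of the 10. All 6 EMT factors and VIM were higher in 1205Lu cells, CDH2 and CDH11 were higher in A375 cells, and CDH1 was near the floor in both. Copy number and regulation cannot be told apart in a comparison of lines. Levels of different genes were compared per length, as TPM, in which counts are divided by the length of the gene's exon union before scaling. VIM led in A375 si-NT samples at 617 ± 8.71 TPM (SD, n = 3), followed by CDH2 at 78.6 ± 0.248 TPM and ZEB1 at 20.8 ± 0.232 TPM. TWIST1, SNAI1, TWIST2 and ZEB2 lay between 7.42 and 9.83 TPM and overlapped with their neighbours in that order. The place of ZEB2 rests on its exon union of 26151 bp, which pools all its annotated transcripts, against 8650 bp for ZEB1. In CPM, without length, A375 si-NT means were 76.2 for ZEB2 and 70.8 for ZEB1. Which transcripts were expressed was not tested. SNAI2 at 0.602 ± 0.12 TPM, CDH11 at 0.330 ± 0.0201 TPM and CDH1 at 0.103 ± 0.0959 TPM closed the order. In 1205Lu si-NT samples VIM again led, at 3097 ± 49.4 TPM, but SNAI2 at 130 ± 0.897 TPM and SNAI1 at 59.7 ± 2.55 TPM came next. There CDH2 at 16.1 ± 0.739 TPM and TWIST1 at 15.2 ± 0.720 TPM overlapped, and CDH11 and CDH1 were last at 0.0528 ± 0.00863 TPM and 0.0319 ± 0.0120 TPM.

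**Figure D1:**
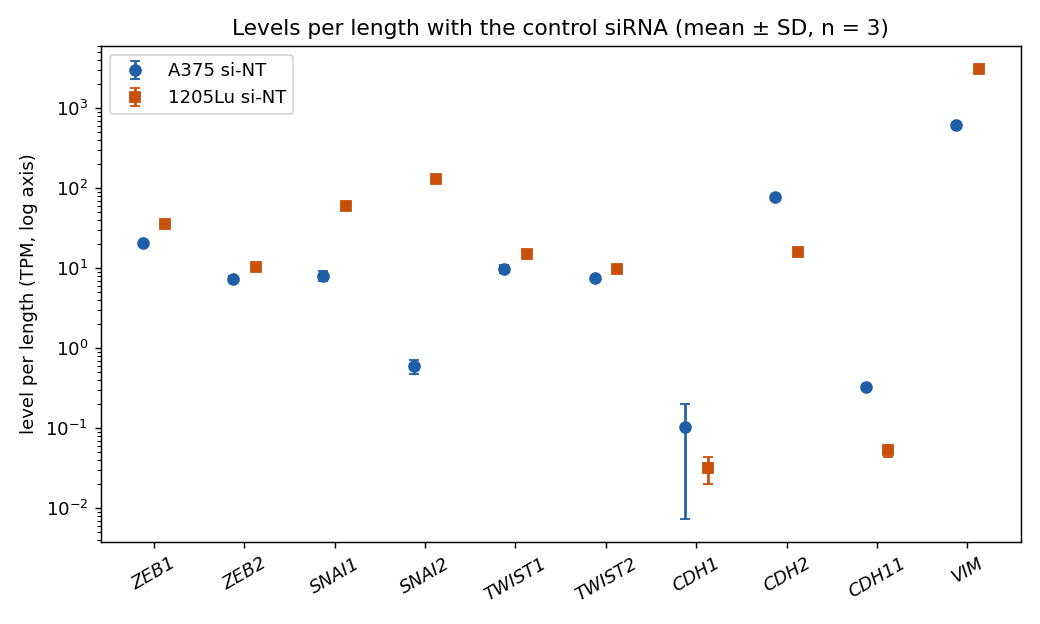
Level per length (TPM, log axis) of each of the 10 genes with the control siRNA in A375 (circles) and 1205Lu (squares), as the mean and SD of 3 samples. SNAI2 stood at 0.602 TPM in A375 and 130 TPM in 1205Lu, and CDH2 at 78.6 and 16.1 TPM.

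The direction of small effects of silencing rested on how libraries were scaled. With length-scaled totals, in which each library is scaled by its sum of counts per base of exon as in TPM (an alternative chosen after seeing the data), the median log2 fold change of all tested protein-coding genes moved from 0.014 to -0.16 in A375 and from -0.00093 to 0.11 in 1205Lu cells. Of the protein-coding genes that passed edgeR's test, 51.8% were higher in A375 cells with TMM and 25.9% with length-scaled totals, and in 1205Lu cells 51.0% and 69.6%. The difference between lines had a median of -0.0013 with TMM and 0.26 with length-scaled totals. Fold changes below are with TMM, which centres them near the median gene, and calls that this scaling changed are given beside them.

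ZEB1 and ZEB2 encode zinc finger and homeobox repressors. ZEB1 (ENSG00000148516.21) lies on the plus strand of chromosome 10 from 31318495 to 31529814 in GRCh38, the build of all positions given. In A375 si-NT samples it was measured at 70.5, 71.6 and 70.3 CPM, and in A375 si-FRA1 samples at 96.3, 97.3 and 91.6 CPM. Every A375 sample with FRA1 silenced was above every control. The log2 fold change, here always si-FRA1 over si-NT within a line, was 0.42 (SE 0.0366, edgeR adjusted p = 8.9e-10). In 1205Lu cells ZEB1 went the other way, from 147, 156 and 150 CPM in controls to 134, 142 and 136 CPM in silenced samples. The groups again did not overlap, although the gap was narrow, and the log2 fold change was -0.15 (SE 0.0316, edgeR adjusted p = 0.00062). This call was lost with length-scaled totals (-0.044, edgeR adjusted p = 0.46), and the rise in A375 cells was 0.25 on that scale (edgeR adjusted p = 2.3e-05). The difference between the lines in the effect of silencing was itself significant, at -0.56 on the log2 scale (SE 0.0488, edgeR adjusted p = 1.2e-09 for the interaction), and at -0.29 with length-scaled totals (edgeR adjusted p = 0.00039). With si-NT, ZEB1 was 2.13-fold higher in 1205Lu than in A375 cells (edgeR adjusted p = 1.1e-19). On the opposite strand, the overlapping ZEB1-AS1 had between 3.03 and 5.85 CPM in all samples and did not pass in either line, with adjusted p of 0.18 in A375 and 0.25 in 1205Lu cells from edgeR. The other overlapping annotations, SPTLC1P1 and a further pseudogene, held at most 5 counts per sample. The libraries were strand-specific, but the strand setting of the counting is not given in the sources used here.

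ZEB2 (ENSG00000169554.20, chromosome 2, minus strand, 144364364 to 144521057) was higher with FRA1 silenced in both lines. A375 si-NT samples held 71.2, 74.7 and 82.6 CPM and A375 si-FRA1 samples 88.6, 97.1 and 89.1 CPM. The log2 fold change was 0.26 (SE 0.0469, edgeR adjusted p = 6.0e-05), a call that was lost with length-scaled totals (0.089, edgeR adjusted p = 0.14). In 1205Lu cells the controls held 132, 137 and 130 CPM and the silenced samples 189, 191 and 181 CPM, without overlap. There the log2 fold change was 0.48 (SE 0.0309, edgeR adjusted p = 1.4e-10), larger than in A375 cells by 0.23 (SE 0.0611, edgeR adjusted p = 0.0047 for the interaction). Of the annotations that overlap ZEB2, ZEB2-AS1 had at most 10 counts per sample. AC009951.1, an unclassified transcript on the same strand as ZEB2, had between 2.67 and 6.17 CPM and was higher with si-FRA1 in 1205Lu cells (log2 fold change 0.57, edgeR adjusted p = 0.014), and how reads were divided between it and ZEB2 was not tested.

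SNAI1 (SNAIL, ENSG00000124216.4), on the plus strand of chromosome 20 from 49982980 to 49988886, had the largest significant fold change of the EMT factors in either line. In A375 si-NT samples it was low, at 6.20, 4.75 and 5.34 CPM, and in A375 si-FRA1 samples it reached 9.43, 10.4 and 11.9 CPM. The lowest sample with silencing stood above the highest control. The log2 fold change was 0.96 (SE 0.129, edgeR adjusted p = 1.1e-06), just under a doubling at 1.94-fold. In 1205Lu cells, where SNAI1 was 9.13-fold higher than in A375 cells to begin with (edgeR adjusted p = 3.0e-21), it went from 48.2, 49.5 and 50.5 CPM to 78.7, 86.5 and 76.6 CPM. The rise was 1.61-fold there (log2 fold change 0.69, SE 0.0471, edgeR adjusted p = 2.8e-10). The difference between the lines was -0.25 (SE 0.123) and did not pass (edgeR adjusted p = 0.13), although it did without A375 si-FRA1 replicate 1 (-0.33, edgeR adjusted p = 0.047), and it was 0.013 with length-scaled totals (edgeR adjusted p = 0.96).

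SNAI2 (SLUG, ENSG00000019549.12) spans positions 48917598 to 48921740 of chromosome 8 on the minus strand. In A375 cells it was close to the floor of detection, with 21, 17 and 17 counts in the si-NT samples and 29, 39 and 14 counts in the si-FRA1 samples. These groups overlapped, and the log2 fold change of 0.39 had an SE of 0.406 (edgeR adjusted p = 0.45) and turned to -0.073 without A375 si-FRA1 replicate 2. In 1205Lu cells SNAI2 was the second of the 10 genes by level per length, with 209, 207 and 204 CPM in the controls and 315, 318 and 312 CPM after silencing. The samples with FRA1 silenced were all far above the controls, and the rise of 1.51-fold (log2 fold change 0.59, SE 0.0227) had an edgeR adjusted p of 4.5e-14. The level in 1205Lu si-NT was 267-fold that in A375 si-NT (log2 difference 8.06, SE 0.0889, edgeR adjusted p = 2.0e-29). The effect of silencing was not shown to differ between the lines (0.22, SE 0.272, edgeR adjusted p = 0.60).

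TWIST1 and TWIST2 encode basic helix-loop-helix factors that bind E-boxes with E-proteins such as TCF3. TWIST1 (ENSG00000122691.13) lies on the minus strand of chromosome 7, where its canonical transcript runs from 19115468 to 19117636. It had 7.01, 8.78 and 7.33 CPM in A375 si-NT and 9.62, 8.18 and 8.82 CPM in A375 si-FRA1 samples, which overlapped (log2 fold change 0.20, SE 0.120, edgeR adjusted p = 0.18). In 1205Lu cells it had 15.9, 14.6 and 13.9 CPM in controls and 17.4, 17.1 and 16.9 CPM in silenced samples. Those groups were apart, but the log2 fold change of 0.19 (SE 0.0828) missed the threshold at an edgeR adjusted p of 0.070, and it passed without 1205Lu si-NT replicate 1 (0.26, edgeR adjusted p = 0.038) and with length-scaled totals (0.30, edgeR adjusted p = 0.0056). TWIST2 (ENSG00000233608.4), on the plus strand of chromosome 2 from 238848032 to 238910534, did not pass in A375 cells, with 6.51, 6.05 and 6.17 CPM against 5.54, 5.89 and 6.40 CPM (log2 fold change -0.080, SE 0.131, edgeR adjusted p = 0.65). In 1205Lu cells its controls had 10.1, 9.92 and 10.3 CPM and its silenced samples 11.9, 12.5 and 11.5 CPM. They did not overlap, and the log2 fold change was 0.23 (SE 0.101, edgeR adjusted p = 0.083), which passed with length-scaled totals (0.33, edgeR adjusted p = 0.014). Both genes were higher in 1205Lu than in A375 cells with si-NT, by 1.92-fold for TWIST1 (edgeR adjusted p = 1.2e-08) and by 1.62-fold for TWIST2 (edgeR adjusted p = 4.4e-06). Neither showed a difference between lines in the effect of silencing, with adjusted p of 0.98 and 0.14 from edgeR, although for TWIST2 it passed with length-scaled totals (0.58, edgeR adjusted p = 0.0051).

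CDH1, the epithelial cadherin (ENSG00000039068.19), on the plus strand of chromosome 16 from 68737292 to 68835537, was barely detected. A375 si-NT samples had 1, 5 and 12 counts and A375 si-FRA1 samples 16, 12 and 19 counts. The groups touched at 12 counts, while the lowest control had a single one. The log2 fold change was 1.199 with an SE of 0.587 (edgeR adjusted p = 0.095), and it came to 2.17 without A375 si-NT replicate 3 (edgeR adjusted p = 0.020). The gene stood close to the filter on low counts. In 1205Lu cells CDH1 had 2, 3 and 2 counts with si-NT and 3, 5 and 1 counts with si-FRA1, and it was not tested.

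CDH2, the neural cadherin (ENSG00000170558.9, chromosome 18, minus strand, 27932879 to 28177946) was 265 ± 1.45 CPM in A375 si-NT and 67.2 ± 2.03 CPM in 1205Lu si-NT (SD, n = 3). Its level in 1205Lu cells was 0.253 times that in A375 cells (log2 difference -1.98, SE 0.0314, edgeR adjusted p = 3.3e-26). The single A375 values were 263, 266 and 266 CPM in controls and 274, 285 and 277 CPM in silenced samples. The samples with FRA1 silenced were all slightly above the controls, with a log2 fold change of 0.067 (SE 0.0232, edgeR adjusted p = 0.018). That call was lost without A375 si-NT replicate 1 (adjusted p = 0.069, edgeR) and without A375 si-FRA1 replicate 2 (adjusted p = 0.11, edgeR). With length-scaled totals the sign turned and CDH2 passed as lower in A375 cells (-0.10, edgeR adjusted p = 0.0038). In 1205Lu cells CDH2 had 64.9, 68.9 and 67.7 CPM in controls and 61.9, 64.5 and 67.2 CPM in silenced samples. These overlapped and did not pass (log2 fold change -0.073, SE 0.0424, edgeR adjusted p = 0.19), nor with length-scaled totals, where the sign turned (0.034, edgeR adjusted p = 0.65). The difference between the lines was -0.13 (SE 0.0448, edgeR adjusted p = 0.031), a call that was lost with any of 9 of the 12 samples left out (adjusted p from 0.053 to 0.13, edgeR) and whose sign turned with length-scaled totals (0.14, edgeR adjusted p = 0.044).

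CDH11, a cadherin of mesenchymal cells (ENSG00000140937.14, chromosome 16, minus strand, 64943753 to 65126112) was rare but rose in A375 cells. It had 38, 46 and 39 counts with si-NT (1.72, 1.82 and 1.62 CPM) and 90, 87 and 71 counts with si-FRA1 (2.76, 3.63 and 2.87 CPM). No sample of either group reached into the other, and the log2 fold change was 0.83 (SE 0.222, edgeR adjusted p = 0.0030). In 1205Lu cells it had between 5 and 10 counts in each sample and was not tested.

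VIM (ENSG00000026025.16), on the plus strand of chromosome 10 from 17228241 to 17237593, was by far the most abundant of these transcripts and was lower with FRA1 silenced in both lines. A375 si-NT samples had 1266, 1254 and 1241 CPM and A375 si-FRA1 samples 1159, 1181 and 1144 CPM. The groups were apart, and the drop was small (log2 fold change -0.12, SE 0.0149, edgeR adjusted p = 5.3e-07). In 1205Lu cells VIM went from 7817, 7766 and 7771 CPM to 6768, 6840 and 6767 CPM. The 1205Lu replicates lay close together within each group, and the log2 fold change was -0.21 (SE 0.00846, edgeR adjusted p = 7.2e-14). The lines differed in this effect by -0.086 (SE 0.0165, edgeR adjusted p = 0.00017), but which line had the larger drop turned with length-scaled totals, where VIM was at -0.29 in A375 and -0.11 in 1205Lu cells and the difference was 0.18 (edgeR adjusted p = 7.3e-05). VIM-AS1, on the opposite strand, was also lower in 1205Lu cells (log2 fold change -0.64, SE 0.226, edgeR adjusted p = 0.030), at 3.19, 3.34 and 2.30 CPM against 2.19, 1.70 and 1.87 CPM.

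**Figure D2:**
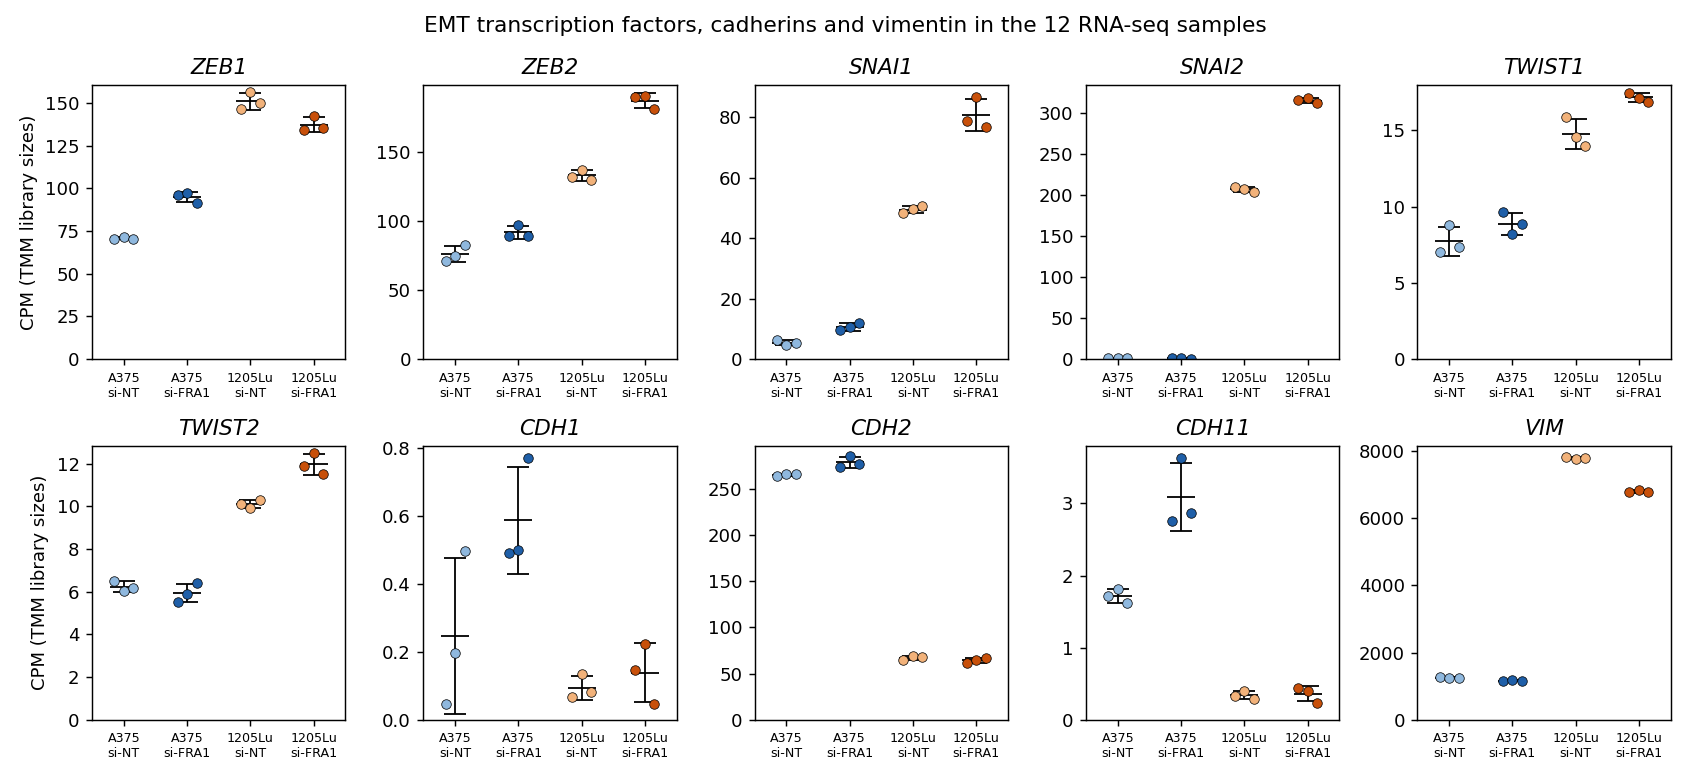
CPM on TMM library sizes of the 10 genes in the 12 RNA-seq samples, 1 panel a gene with its own axis from 0, points for the samples and bars for the mean and SD (n = 3). SNAI1 was higher with si-FRA1 in both lines, SNAI2 was near 0 in A375 and between 204 and 318 CPM in 1205Lu, and VIM was lower with si-FRA1 in both.

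Counted over the 10 genes, 6 of 10 tested passed in A375 cells, 5 higher and 1 lower with si-FRA1. Over all 13598 tested protein-coding genes 57.7% passed there, 29.9% higher and 27.8% lower, so the share of the 10 that passed was near that of all genes. Without overlap between groups were 6 of the 10, against 62.8% of all tested protein-coding genes. In 1205Lu cells 5 of 8 tested passed, 3 higher and 2 lower, against 47.0% of 13728 protein-coding genes, 24.0% higher and 23.0% lower. There 7 of the 8 did not overlap, against 55.1%. None of the 10 also passed an absolute log2 fold change over 1 in either line by edgeR, as 5.29% of protein-coding genes did in A375 and 2.97% in 1205Lu cells. The count was also 0 with DESeq2 and, by edgeR, at an unadjusted p under 0.05. It was not 0 with every sample left out in turn, since SNAI1 in A375 cells reached 1.06 without si-NT replicate 1 (edgeR adjusted p = 1.6e-06) and 1.04 without si-FRA1 replicate 1 (edgeR adjusted p = 4.5e-06), and CDH1 in A375 cells reached 2.17 without si-NT replicate 3, as given above. Those that passed in both lines were 4, namely ZEB1, ZEB2, SNAI1 and VIM, and of these ZEB1 had opposite signs. The shares of all protein-coding genes that passed in both lines, or did so with opposite signs, are not given here. Nothing particular to the 10 genes is therefore read from this count. The test of the difference between lines passed for 4 of 10 (ZEB1, ZEB2, CDH2 and VIM), against 38.7% of protein-coding genes.

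**Figure D3:**
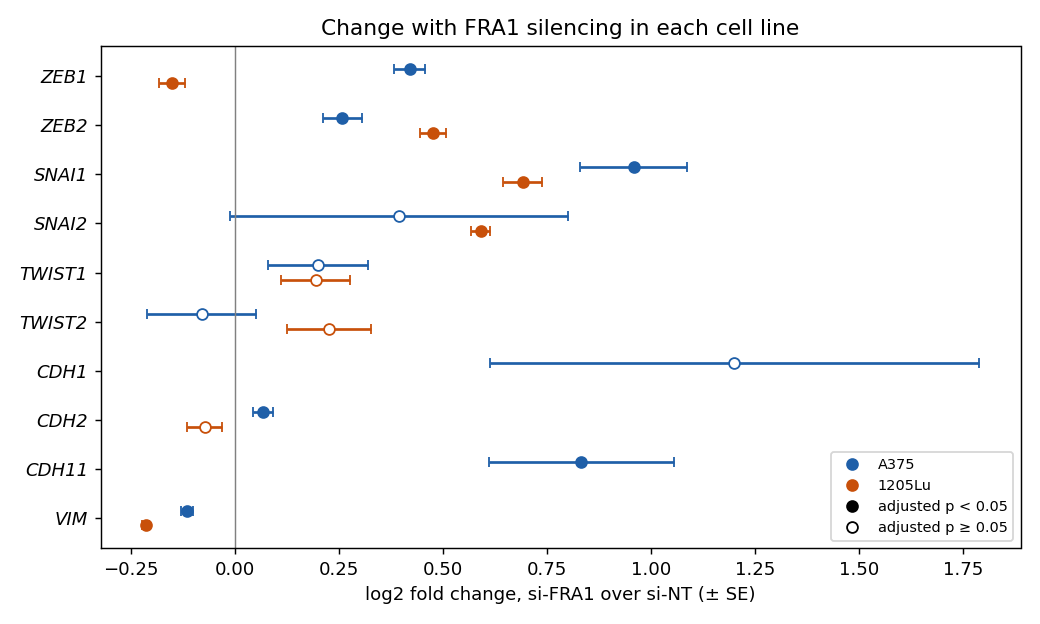
Log2 fold change of si-FRA1 over si-NT with its SE for each gene tested in A375 (blue) and 1205Lu (orange); filled points passed an adjusted p of 0.05 by edgeR. SNAI1 lay at 0.96 and 0.69 and ZEB1 on opposite sides of 0, at 0.42 and -0.15, while CDH1 and CDH11 could be tested in A375 alone.

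Lists of related genes are given by their counts, beside the 57.7% of all tested protein-coding genes that passed in A375 and the 47.0% that passed in 1205Lu cells, and nothing particular to a list is read from them. Of 19 tested partners and co-repressors of the EMT factors, 15 passed in A375 cells, 7 higher and 8 lower, and 13 in 1205Lu cells, 10 higher and 3 lower. With length-scaled totals 4 were higher and 10 lower in A375 cells and 12 higher and 2 lower in 1205Lu cells. The median log2 fold changes were 0.05 and 0.14, beside 0.014 and -0.00093 over all tested protein-coding genes. TCF3, the E-protein that pairs with TWIST factors, was lower in both lines, at -1.17 in A375 (edgeR adjusted p = 5.8e-14) and -0.49 in 1205Lu cells (edgeR adjusted p = 1.0e-08). The ID proteins, which bind E-proteins and keep them from DNA, were higher, ID1 at 1.62 and 0.38 and ID3 at 1.498 and 0.79 in A375 and 1205Lu cells, each past the test in both. ID2 passed in 1205Lu cells (1.36, edgeR adjusted p = 3.4e-09) and not in A375 cells (0.34, edgeR adjusted p = 0.34). HAND2, another partner of TWIST factors, was lower in A375 cells at -1.02 (edgeR adjusted p = 0.020).

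Among other factors that promote EMT, 9 of 11 tested passed in A375 cells, 3 higher and 6 lower, and 9 of 12 in 1205Lu cells, 6 higher and 3 lower, with medians of -0.39 and 0.25, beside the same 57.7% and 47.0% of all protein-coding genes. The mesenchymal homeobox gene PRRX1 went in opposite directions, 0.89 in A375 (edgeR adjusted p = 1.1e-06) and -1.08 in 1205Lu cells (edgeR adjusted p = 3.2e-14). PRRX2 was higher in 1205Lu cells at 2.03 (edgeR adjusted p = 5.1e-05). In A375 cells ETS1 was lower at -1.24, SOX9 at -1.0 and GSC at -1.46, each past the edgeR test. Of the proteins that act on the stability of SNAIL, 5 of 10 tested passed in A375 cells, 3 higher and 2 lower, and 8 of 10 in 1205Lu cells, 7 higher and 1 lower, none past the fold limit, with medians of 0.017 and 0.13. With length-scaled totals 2 were higher and 6 lower in A375 cells and 9 higher and 1 lower in 1205Lu cells.

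Factors and splicing proteins that keep the epithelial state were sparse, with 8 of 16 tested in A375 cells, of which 3 were lower and none higher, and 7 of 16 in 1205Lu cells, of which 4 were higher and none lower by edgeR, with medians of 0.047 and 0.32. FOXA2 was lower in A375 cells at -1.32 (edgeR adjusted p = 0.0037) and GATA3 higher in 1205Lu cells at 1.14 (edgeR adjusted p = 4.2e-07). FOXA2 was near the floor in A375 cells, with 29, 39 and 35 counts with si-NT and 14, 18 and 14 counts with si-FRA1. Of the epithelial and keratinocyte markers, 6 of 10 tested passed in A375 cells, 3 in each direction, and 5 of 9 in 1205Lu cells, 3 higher and 2 lower, with medians of -0.056 and -0.32, again beside 57.7% and 47.0% of all protein-coding genes. Their summed level lay between 2158 and 2197 CPM in A375 si-NT and between 2053 and 2128 CPM in A375 si-FRA1 samples, and these did not overlap. In 1205Lu cells the sum lay between 389 and 400 CPM in controls and, without overlap, between 409 and 416 CPM in silenced samples.

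Of the genes of mesenchymal matrix and cytoskeleton, 14 of 19 tested were higher and 1 lower in A375 cells, with a median of 0.42, and 8 of 17 were higher and 3 lower in 1205Lu cells, with a median of 0.23, beside 29.9% and 24.0% of all protein-coding genes that were higher. With length-scaled totals 13 were higher and 2 lower in A375 cells and 9 higher and 3 lower in 1205Lu cells. The collagens COL3A1 at 3.07 and COL5A1 at 1.45, the matricellular gene POSTN at 1.21 and the calcium-binding S100A4 at 1.09 rose in A375 cells, and THBS1 rose by 0.68 in A375 and 1.03 in 1205Lu cells, each past the edgeR test. The fibroblast list had 4 of 6 tested higher in A375 cells, LUM (1.64) and PDGFRA (1.12) among them, and 1 higher and 1 lower of 7 in 1205Lu cells. In 1205Lu cells PDGFRB rose by 1.16 while PDGFRA fell by 0.081. The fibroblast list's medians were 0.88 and -0.19, and its summed level rose in A375 cells from between 49.6 and 52.9 CPM to between 81.4 and 83.0 CPM. The samples were cultured melanoma cell lines, and the part of any fibroblasts in the results was not tested. COL1A1 and COL6A3 stand in both the mesenchymal and the fibroblast list.

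Other cadherins and catenins gave 8 higher and 3 lower of 17 tested in A375 cells and 1 higher and 2 lower of 13 in 1205Lu cells, with medians of 0.16 and -0.049. With length-scaled totals 5 were higher and 3 lower in A375 cells and 3 higher and 1 lower in 1205Lu cells, with medians of -0.0052 and 0.058. CDH3 stands in the epithelial list too. CDH6 was higher in A375 cells (1.198, edgeR adjusted p = 2.3e-14) and lower in 1205Lu cells (-0.77, edgeR adjusted p = 1.9e-06). CDH4 was lower in A375 cells at -1.37 and JUP, which encodes plakoglobin, higher at 1.498, both past the edgeR test. Of the intermediate filaments and vimentin linkers, 3 were higher and 4 lower of 8 tested in A375 cells and 2 higher and 4 lower of 7 in 1205Lu cells, with medians of -0.15 and -0.21. The filament genes DES (2.32) and NES (1.34) rose and the linker PLEC was at -1.24 in A375 cells, each past the edgeR test.

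FRA1 occupancy near these genes was read from counts in the consensus peaks, which came to 3354095, 5316527 and 4256577 in the A375 FRA1 libraries and 383994 in the A375 IgG library. In 1205Lu cells they were far fewer, 583750, 897407 and 781542 with FRA1 and 314569 with IgG. Over 10418 peaks, 1205Lu FRA1 replicates 2 and 3 were within sampling noise of each other (chi-square per degree of freedom 1.01, against 1.49 and 1.64 for the other pairs of 1205Lu and 1.07 to 1.25 for the pairs of A375 over 38578 to 43101 peaks) and were counted as 1 sample, so 1205Lu means have n = 2. Enriched peaks were those where no FRA1 library of the line fell under 10 counts or under 4-fold the IgG count with 1 added. Of the 61 peaks, 35 were enriched in A375 cells, the same 57.4% as over all peaks, and 3 in 1205Lu cells (4.92%, beside 7.09% over all peaks). With each library scaled to the same total in peaks, none of the 61 was enriched in A375 and 1 in 1205Lu cells. That scaling takes out any excess over IgG that the peaks share, so it cannot tell depth from enrichment of the peaks as a whole. The share of all peaks under it is not given here. The consensus FOS/JUN sequence, TGACTCA on either strand (read as TGAGTCA on the other), stood within 100 bp of the centre in 18 of the 61 (29.5%, beside 28.6% of all peaks) and anywhere in the peak in 41 (67.2%, beside 57.7%).

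The sequences around a FOS/JUN site are shown for the genes whose peaks the occupancy results turn on, each from the enriched peak with the largest A375 mean that holds one, read from the GRCh38 plus strand with the site in capitals and 40 bases on each side. The ZEB1 stretch is at chr10:31426286-31426372 in an intron, the SNAI1 stretch at chr20:50020446-50020532 downstream, the TWIST2 stretch at chr2:238948530-238948616 downstream, the CDH1 stretch at chr16:68707572-68707658 upstream, the CDH2 stretch at chr18:28114608-28114694 in an intron and the VIM stretch at chr10:17216321-17216407 upstream.
ZEB1: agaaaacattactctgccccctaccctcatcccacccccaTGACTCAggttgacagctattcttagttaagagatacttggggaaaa
SNAI1: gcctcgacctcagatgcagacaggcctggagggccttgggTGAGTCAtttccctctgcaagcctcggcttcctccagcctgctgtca
TWIST2: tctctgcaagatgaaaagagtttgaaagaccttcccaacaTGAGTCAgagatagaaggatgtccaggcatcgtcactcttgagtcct
CDH1: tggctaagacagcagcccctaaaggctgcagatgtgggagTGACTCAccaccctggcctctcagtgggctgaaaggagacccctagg
CDH2: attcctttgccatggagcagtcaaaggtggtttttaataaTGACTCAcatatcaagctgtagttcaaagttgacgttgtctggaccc
VIM: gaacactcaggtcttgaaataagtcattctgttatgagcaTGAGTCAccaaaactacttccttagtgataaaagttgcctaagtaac

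These stretches share the FOS/JUN site that chose them, and other likeness between them was not searched. The site lay 179 bp from the peak centre for ZEB1, 121 bp for SNAI1, 44 bp for TWIST2 and 119 bp for CDH1. For CDH2 it lay 268 bp and for VIM 409 bp away, so only the TWIST2 site was within 100 bp. The CDH1 peak held 3 such sites and the CDH2 and VIM peaks 2 each, and the one nearest the centre is shown. In the promoter windows of RefSeq, from 250 bases before to 50 after a start, 5 of the 10 genes had an entry (ZEB1, ZEB2, TWIST2, CDH2 and VIM), and none of their 12 windows held TGACTCA or TGAGTCA, as 4.95% of all 35116 windows did. No match says only that these letters are not in these windows.

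Differences in FRA1 occupancy between lines were tested with edgeR on counts scaled by TMM, so a log2 difference is relative to the peaks as a whole. Of 53281 tested peaks, 48.4% passed, 25.9% higher in A375 and 22.5% higher in 1205Lu cells. All 61 peaks near the 10 genes were tested and 35 passed (57.4%), 19 higher in A375 and 16 higher in 1205Lu cells. The direction rests on the scaling, since over all peaks the calls were 53.6% higher in A375 cells with TMM, 42.7% with DESeq2's size factors and 93.0% without scaling.

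Calls in a single direction were not particular to CDH2. All peaks that passed were higher in A375 cells for ZEB1 (2) and TWIST1 (1) too. For SNAI2 (2) and TWIST2 (3) all were higher in 1205Lu cells. Near SNAI2 the IgG library gave 54.7 CPM of its counts in peaks in A375 and 108 CPM in 1205Lu cells. Near TWIST2 it gave 75.5 and 175 CPM, near SNAI1 185 and 350 CPM and near ZEB2 83.3 and 162 CPM. Near TWIST1 (102 and 76.3 CPM), CDH1 (151 and 105 CPM) and CDH2 the IgG share was higher in A375 cells. The test used FRA1 counts without IgG, and the part of these differences in the calls was not tested. CDH2 had the most peaks and the most that passed in a single direction. It had 13 peaks, of which 9 were enriched in A375 and none in 1205Lu cells, and all 8 that passed the test were higher in A375 cells. The strongest of all 61 peaks, at chr18:28113030-28115737 in an intron 62747 bp from the canonical start, held 324, 626 and 468 counts in A375 FRA1 libraries against 26 in IgG. The 1205Lu FRA1 libraries held 7, 8 and 7 counts there against 9 in IgG. In raw counts A375 libraries were thus all far above their IgG and 1205Lu libraries below theirs (log2 difference 1205Lu over A375 -3.25, SE 0.309, edgeR adjusted p = 1.4e-11). The A375 totals in peaks were also far larger with FRA1, 3354095 to 5316527 counts against 383994 with IgG. With libraries scaled to the same total in peaks, this peak was not enriched in A375 cells, nor was any other of the 61. Because that scaling takes out any excess over IgG that the peaks share, nothing is concluded from it about enrichment. Over the 13 peaks the 1205Lu FRA1 libraries summed to 40, 40 and 46 counts, fewer than the 62 of the IgG library. The IgG library gave 286 CPM of its counts in peaks near CDH2 in A375 and 197 CPM in 1205Lu cells, and over the whole of chromosome 18 the IgG share of A375 was 1.66 times that of 1205Lu, against 0.615 to 1.78 on the other chromosomes, and the part of this difference in the result was not tested. The peak next to the canonical start, at chr18:28177284-28177823, was weak in both, with 18, 33 and 29 counts against 8 in IgG and 6, 4 and 2 against 6 (edgeR adjusted p = 0.85). The other promoter peaks of CDH2 lay at alternative starts or with their near edge 1269 bp from the canonical one. Of these, the peak at chr18:28045593-28046112 passed the test, with A375 FRA1 counts of 41, 76 and 65 against 3, 1 and 1 (log2 difference -2.19, SE 0.562, edgeR adjusted p = 0.0012), a call that was lost without 1205Lu FRA1 replicates 2 and 3 (adjusted p = 0.083), and the others had adjusted p of 0.27 and 0.079 from edgeR.

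VIM had an enriched peak in both lines, as did CDH1 at an alternative start. A peak upstream, centred 12286 bp from the start at chr10:17214985-17216926, held 194, 322 and 240 counts in A375 against 13 in IgG and 59, 107 and 88 counts in 1205Lu against 8 in IgG. It was enriched in both lines and, relative to all peaks, higher in 1205Lu cells (log2 difference 1.02, SE 0.177, edgeR adjusted p = 5.8e-06), while without scaling it was -1.68. The peak over the start itself, at chr10:17228140-17229237, held 77, 110 and 76 counts against 5 in IgG in A375 cells and 24, 63 and 46 against 9 in 1205Lu cells. Every FRA1 library was above its IgG there in raw counts (log2 difference 1.53, SE 0.237, edgeR adjusted p = 8.3e-07, and -1.17 without scaling). Of 6 VIM peaks 5 passed, 4 of them higher in 1205Lu cells relative to all peaks.

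CDH1, though barely transcribed in either line, had 8 peaks, 4 enriched in A375 cells and 1 in 1205Lu cells. Its largest, upstream at chr16:68707108-68708361 and nearest to the start of CDH3, held 267, 379 and 313 counts in A375 against 13 in IgG, and 11, 5 and 6 in 1205Lu against 6 in IgG. In raw counts, with far larger totals for FRA1 than for IgG in A375 cells, A375 libraries were far above their IgG. The 1205Lu libraries lay near theirs (log2 difference -2.53, SE 0.306, edgeR adjusted p = 5.1e-09). Inside the gene at an alternative start, 23555 bp from the canonical one, the peak at chr16:68760418-68761276 was enriched in both lines, with 46, 74 and 70 counts against 9 in A375 and 30, 51 and 48 against 6 in 1205Lu cells. Relative to all peaks it was higher in 1205Lu cells (2.04, SE 0.230, edgeR adjusted p = 9.9e-10), and -0.66 without scaling. The further promoter peaks, at alternative starts 74217 and 86335 bp into the gene, were higher in A375 cells, the second with 115, 178 and 153 counts against 7, 4 and 0. The call of the first (edgeR adjusted p = 0.015) was lost with DESeq2 (adjusted p = 0.086), without A375 FRA1 replicate 3 (adjusted p = 0.055), without 1205Lu FRA1 replicate 1 (adjusted p = 0.14) and without 1205Lu FRA1 replicates 2 and 3 (adjusted p = 0.058). No peak lay within 3 kb of the canonical CDH1 start, the nearest edge being 18784 bp away. CDH11 had 3 peaks, 1 of them enriched, at an alternative start in A375 cells with 16, 40 and 21 counts against 1 in IgG (log2 difference -2.89, SE 1.03, edgeR adjusted p = 0.018). That call was lost with DESeq2 (adjusted p = 0.13), without A375 FRA1 replicate 2 (adjusted p = 0.060) and without 1205Lu FRA1 replicate 1 (adjusted p = 0.20), and the other promoter peak did not pass (edgeR adjusted p = 0.39). The remaining CDH11 peak, chosen after its values were seen, lay in an intron at chr16:65012085-65012824 and had 2, 2 and 3 counts against 3 in IgG in A375 cells and 7, 24 and 20 against 4 in 1205Lu cells. It was enriched in neither line, and relative to all peaks it was higher in 1205Lu cells (log2 difference 5.22, SE 0.627, edgeR adjusted p = 4.4e-09).

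Near the SNAI genes, the strongest SNAI1 peak lay downstream at chr20:50019946-50020791, with 174, 244 and 233 counts against 12 in IgG in A375 cells and 12, 24 and 15 against 19 in 1205Lu cells. Its raw counts were high in A375 libraries and at the IgG level in 1205Lu libraries (log2 difference -1.06, SE 0.264, edgeR adjusted p = 0.00090). The call was lost without 1205Lu FRA1 replicate 1 (-0.65, edgeR adjusted p = 0.083). Chosen after its values were seen, the peak over the end of SNAI1 at chr20:49988207-49990109 had 56, 85 and 62 counts against 15 in A375 and 75, 108 and 98 against 33 in 1205Lu cells. The 1205Lu libraries had more counts there despite their smaller totals, as did their IgG library, and the peak was enriched in neither (log2 difference 3.10, SE 0.180, edgeR adjusted p = 1.1e-17, and 0.39 with adjusted p = 0.32 without scaling). For SNAI2, 2 of 5 peaks were enriched in A375 cells and none in 1205Lu cells, while both peaks that passed the test between lines were higher in 1205Lu cells relative to all peaks. These were chosen after their values were seen. The one centred 29847 bp downstream of the start had 3, 9 and 3 counts against 5 in IgG in A375 cells and 8, 23 and 23 against 8 in 1205Lu cells (log2 difference 4.29, SE 0.534, edgeR adjusted p = 9.7e-09). The one centred 13036 bp upstream had 29, 36 and 27 counts against 2 in A375 cells and 10, 13 and 8 against 5 in 1205Lu cells (log2 difference 1.08, SE 0.391, edgeR adjusted p = 0.020). That call was lost without 1205Lu FRA1 replicate 1 (adjusted p = 0.065, edgeR) and without 1205Lu FRA1 replicates 2 and 3 (adjusted p = 0.066, edgeR), and the difference was -1.60 without scaling. Its strongest enriched peak, 21748 bp downstream of the start, had 47, 55 and 52 counts against 7 in A375 and 9, 8 and 11 against 11 in 1205Lu cells (log2 difference 0.27, SE 0.364, edgeR adjusted p = 0.57).

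TWIST2 held the one peak near these genes that was enriched in 1205Lu cells alone. At chr2:238820839-238821613, 26859 bp upstream of the canonical start, 1205Lu FRA1 libraries had 71, 179 and 129 counts against 7 in IgG, and A375 FRA1 libraries 4, 9 and 10 against 2. The 1205Lu counts were far higher in spite of the lower totals (log2 difference 6.54, SE 0.268, edgeR adjusted p = 3.6e-22), and no FOS/JUN consensus stood in this peak. Downstream at chr2:238948026-238949208 the gene had 149, 198 and 189 counts against 8 in A375 and 39, 69 and 48 against 14 in 1205Lu cells (log2 difference 0.82, SE 0.199, edgeR adjusted p = 0.00070, and -1.88 without scaling). TWIST1 had 6 peaks within 50 kb of its annotated span, 19020991 to 19117636, which is longer than its canonical transcript. For 4 of the 6 the nearest coding start was that of TWIST1. Of the 6, 1 passed, at chr7:18994066-18994495, centred 123356 bp downstream of the canonical start. It had 68, 103 and 86 counts in A375 against 1, 2 and 1 in 1205Lu cells (log2 difference -3.10, SE 0.549, edgeR adjusted p = 8.6e-06). The TWIST1 promoter peak, with its near edge 2973 bp from the start, had 31, 28 and 33 counts in A375 against 3 in IgG and 3, 2 and 4 in 1205Lu against 1 in IgG, which did not pass (edgeR adjusted p = 0.39).

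ZEB1 had 2 peaks, both higher in A375 cells. The intronic one at chr10:31425864-31427152 held 79, 129 and 72 counts against 6 in A375 and 3, 4 and 5 against 6 in 1205Lu cells (log2 difference -2.02, SE 0.459, edgeR adjusted p = 0.00032). The one at an alternative start held 20, 36 and 33 counts against 0, 1 and 1 (log2 difference -3.11, SE 0.957, edgeR adjusted p = 0.0066), a call that was lost with DESeq2 (adjusted p = 0.091) and without 1205Lu FRA1 replicate 1 (adjusted p = 0.12). Of 7 ZEB2 peaks, 4 downstream lay closest to the start of GTDC1, the strongest at chr2:144349716-144350714 with 76, 121 and 115 counts against 6, 5 and 3 (log2 difference -1.66, SE 0.395, edgeR adjusted p = 0.00052). At the ZEB2 promoter, with its near edge 2366 bp from the canonical start, A375 libraries had 23, 51 and 40 counts against 3 in IgG and 1205Lu libraries 12, 19 and 10 against 8. Relative to all peaks this peak was higher in 1205Lu cells (1.16, SE 0.347, edgeR adjusted p = 0.0051), and -1.54 without scaling.

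**Figure D4:**
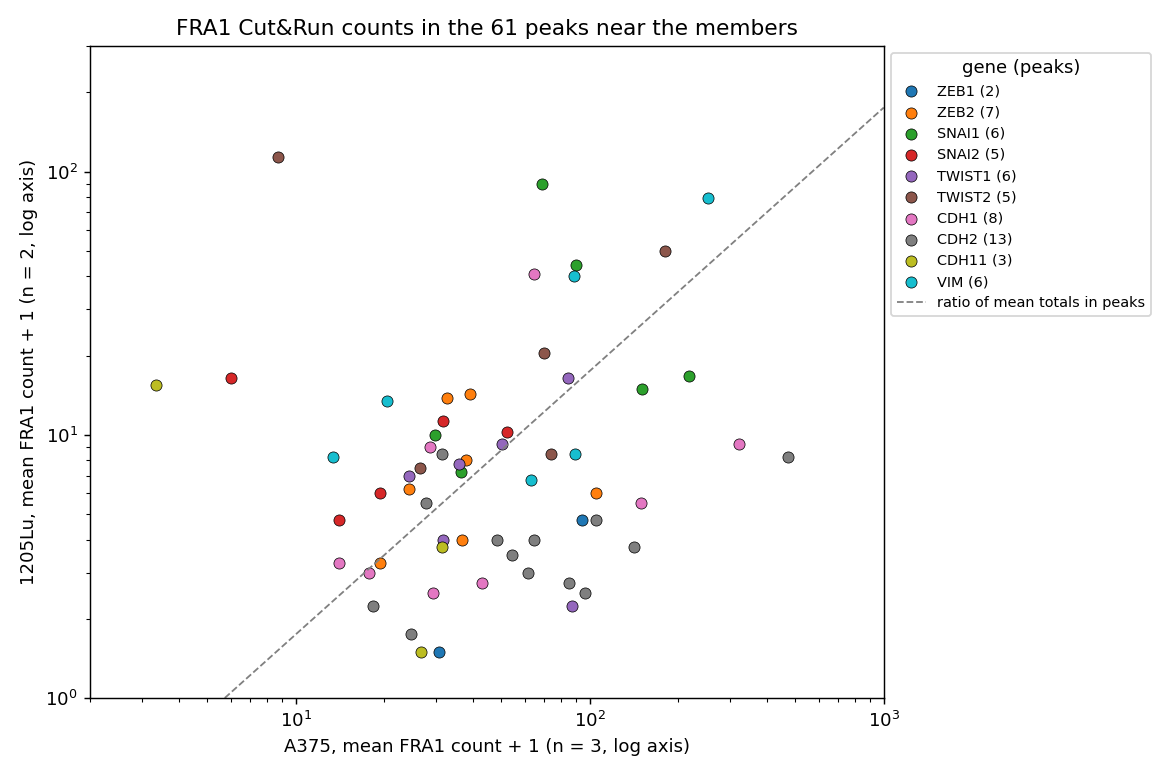
Mean FRA1 Cut&Run count plus 1 in A375 (n = 3) against 1205Lu (n = 2) on log axes for the 61 peaks, coloured by gene; the dashed line is the ratio of the mean totals in peaks. Most CDH2 peaks lie below the line and most VIM peaks above it, and the TWIST2 peak with 71, 179 and 129 counts in 1205Lu stands far above it.

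**Figure D5:**
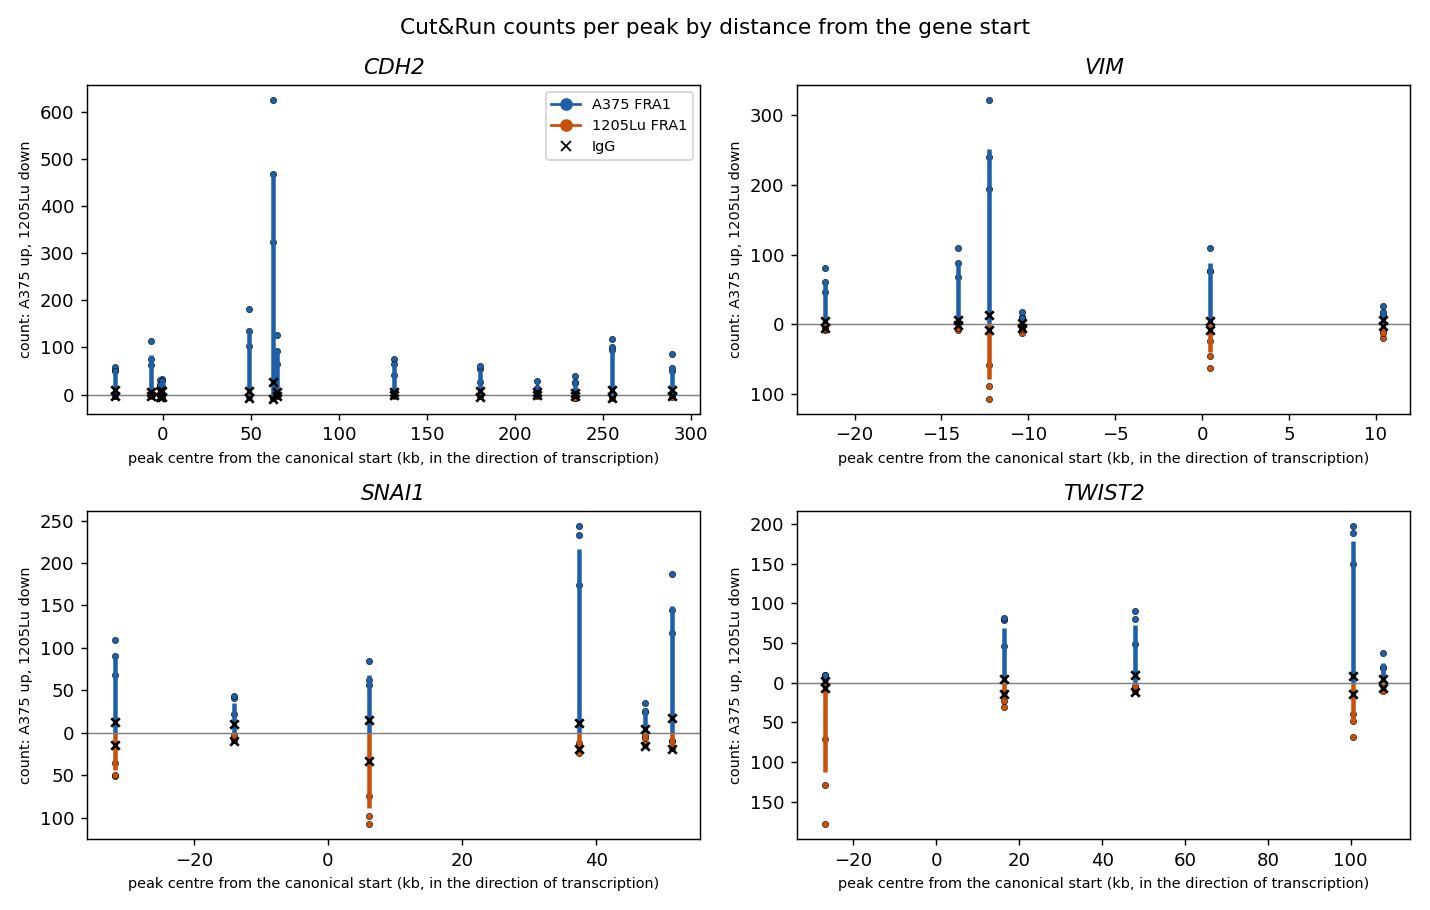
Counts per peak for CDH2, VIM, SNAI1 and TWIST2 by the distance of the peak centre from the canonical start in kb, A375 upwards and 1205Lu downwards, with bars for the mean, points for the FRA1 libraries and crosses for IgG. The CDH2 peak with 324, 626 and 468 counts in A375 had 7, 8 and 7 in 1205Lu, whereas the upstream VIM peak is seen in both lines.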

How the data were processed

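RNA-seq (12 samples) and Cut&Run (8 samples) were analysed in A375 and 1205Lu cells. Per the labels and the study's methods, the authors aligned RNA-seq reads to GRCh38 with STAR 2.7.7a and estimated expected counts per gene with RSEM 1.3.0, which they deposited unnormalized and as whole numbers. For Cut&Run the authors used Bowtie2 2.4.1 and MACS2 2.1.1.20160309 and deposited raw counts per consensus peak. The sources used here do not give whether MACS2 was run on single or pooled libraries.

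Counts were tested with edgeR 4.0.16 (filterByExpr, TMM, quasi-likelihood test, Benjamini-Hochberg adjustment) in R 4.3.3, each line on its own for silencing and all 12 samples for the interaction and for the lines with si-NT. A gene or peak passed at an adjusted p under 0.05. TPM used the exon union of GENCODE v44, which also placed the peaks. A promoter peak had a transcript start of the gene within 3 kb. Peaks named were the promoter peaks and, for each gene and line, the enriched peak with the largest mean. The tests were tested on simulated data. Alternatives were DESeq2 1.42.0, other normalization, filters, distances and limits over IgG, and each replicate left out. Scaling libraries by their totals of counts per base of exon, as TPM does, was added after seeing the data.

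The 10 genes and the lists (melanocyte lineage, epithelial and keratinocyte, mesenchymal matrix and cytoskeleton, fibroblast, other cadherins and catenins, partners and co-repressors, other factors that promote EMT, factors that keep the epithelial state, turnover of SNAIL proteins, intermediate filaments) were chosen with earlier results of these data known. From each list up to 6 genes were named, those with the largest absolute log2 fold change among genes past the adjusted p and an absolute log2 fold change over 1 in either line. The list gene DUB3 was not matched. Overlapping genes at or near 0 counts and not named were left out of the text.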

Additional observations from a re-analysis of the deposited data

Results flagged for a closer look

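The effect of FRA1 silencing differed between the cell lines for 4 of the 10 genes, by the interaction of cell line and siRNA over the 12 samples (edgeR's quasi-likelihood test). The difference, 1205Lu minus A375 on the log2 scale, was -0.56 for ZEB1 (adjusted p = 1.2e-09, edgeR), 0.23 for ZEB2 (adjusted p = 0.0047, edgeR), -0.13 for CDH2 (adjusted p = 0.031, edgeR) and -0.086 for VIM (adjusted p = 0.00017, edgeR). ZEB1 had opposite signs in the lines, 0.42 in A375 and -0.15 in 1205Lu cells, each in 3 of 3 samples, although in 1205Lu cells the effect did not pass with length-scaled totals, as TPM scales (-0.044, adjusted p = 0.46, edgeR). The CDH2 difference was lost without the filter on low counts (-0.11, adjusted p = 0.16, edgeR) and with any of 9 samples left out. With length-scaled totals the sign of the difference turned for CDH2 (0.14, adjusted p = 0.044, edgeR) and for VIM (0.18, adjusted p = 7.3e-05, edgeR), while ZEB1 (-0.29) and ZEB2 (0.49) kept theirs. FOSL1 mRNA left after silencing also differed, 6.22% in A375 and 14.1% in 1205Lu cells, and its part in these differences was not tested. Groups of 3 samples were not examined for outlying samples.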

How the results depend on the processing

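Of the single values recomputed, 807 kept their direction and call, 23 reversed, 28 lost and 12 gained a call, and of the counts 148 stayed within 1.5 times and 19 moved. With a required absolute log2 fold change over 1, 0 of the 10 genes and 719 protein-coding genes passed in A375 and 0 and 408 in 1205Lu cells. The SNAI2 effect in A375 cells ranged from -0.073 to 0.67 with 1 sample left out, and its difference between lines from -0.026 to 0.65. The TWIST1 difference between lines was -0.020 with DESeq2, -0.041 with upper-quartile normalization and -0.092 to 0.081 with 1 sample left out. With length-scaled totals, chosen after seeing the data, CDH2 turned to -0.10 in A375, 0.034 in 1205Lu and 0.14 between lines, and the differences between lines turned to 0.18 for VIM and 0.013 for SNAI1. Enriched peaks in A375 cells numbered 54 at 2 times IgG, 18 at 8 times, 0 with libraries scaled to the same total and 16 within 10 kb. In 1205Lu cells they numbered 8, 1, 1 and 1 in that order, 6 within 100 kb and 3 to 5 with 1 library left out (5 without replicate 1). Scaling to the same total takes out any excess over IgG that the peaks share. Shares over all peaks in these settings are not given here. The FOS/JUN sequence was in 41 peaks when counted anywhere in the peak, in 6 within 10 kb and in 28 within 100 kb. Without scaling, 57 peaks near the 10 genes and 49379 of all passed, and log2 differences reversed for the peaks at the ZEB2 promoter (-1.54), SNAI2 (-2.42 and, upstream, -1.60), TWIST2 downstream (-1.88), the CDH1 alternative start (-0.66), the CDH2 start (-2.53), VIM upstream (-1.68) and the VIM start (-1.17), as the smaller totals of the 1205Lu libraries then count in full. The CDH2 start peak, which did not pass, was also at -0.045 with 6 separate libraries and ranged from -0.36 to 0.25 with 1 library left out. Where no cause is given, the cause was not tested. With 1 sample left out, 5 to 7 of the 10 genes passed in A375 and 5 to 6 in 1205Lu cells, 3 to 5 differed between lines in effect and 9 to 10 with si-NT, and 28 to 34 peaks passed. Few counts limit SNAI2 in A375 cells, CDH1 and CDH11 in both lines and most 1205Lu peaks.

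The main fits did not pair samples by replicate number. The deviations of same-numbered samples correlated at 0.049, 0.023 and 0.043 in A375 cells, all above the other pairs, which ran from -0.055 to 0.010. In 1205Lu cells they correlated at -0.045, -0.015 and -0.021, and the other pairs ran from -0.029 to 0.050. Whether the small A375 values reflect a pairing was not tested. With the replicate block, 7871 protein-coding genes passed in A375 and 6294 in 1205Lu cells, 5608 in the interaction and 26744 peaks, and the CDH2 start peak was at -0.040.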
